A study of Mus musculus with 6 samples.

Results

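Chl1, L1cam, Nrcam and Nfasc are the 4 genes of the L1 family of neural cell adhesion molecules, and their histone H3 lysine 79 methylation was followed in mouse blood progenitors that carry the MLL-AF9 leukaemia fusion. They were taken by symbol from a table of 24012 genes, each symbol standing once. Chl1 was singled out on its own read counts, because its ratio of D544R to WT in H3K79me2 is the lowest of the 8905 genes whose normalised counts average 100 or more, and the other 3 were added as its paralogs. Genes with fewer reads can have lower ratios. The values of Chl1 in that contrast are therefore a description. ChIP-seq with an antibody to H3K79me2 and with one to H3K79me3 had been done on progenitors from mouse bone marrow that were given the fusion by retrovirus. The fusion carried the substitution D544R, the substitution D546R or neither (WT), which gives 3 genotypes, 2 marks and 6 libraries with 1 library per group. All 3 genotypes carry MLL-AF9, so WT is not a normal progenitor, and the sources used here do not say whether a library came from 1 animal or several. With no replicate library there is no test between genotypes, and every interval printed covers counting error only.

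The 4 proteins share a plan of immunoglobulin domains followed by fibronectin type III domains, a single membrane span and a short tail that binds ankyrin, which ties the membrane to the spectrin skeleton. They are known for axon growth and guidance: CHL1 and L1CAM act as adhesion molecules and co-receptors of semaphorin receptors, NrCAM and neurofascin also organise nodes of Ranvier. H3K79 methylation is laid down by DOT1L over the transcribed part of active genes. AF9, the partner in the fusion, can bind DOT1L, and fusion targets such as Meis1 are known for wide and dense H3K79 methylation.

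The 250 bases before the transcription start of each gene are printed to show how the starts differ, with each CG dinucleotide in capitals. CG reads the same on both strands. The sequences are RefSeq's on GRCm38, another build than the mm9 of the read counts, and all 4 genes had an entry.
Chl1: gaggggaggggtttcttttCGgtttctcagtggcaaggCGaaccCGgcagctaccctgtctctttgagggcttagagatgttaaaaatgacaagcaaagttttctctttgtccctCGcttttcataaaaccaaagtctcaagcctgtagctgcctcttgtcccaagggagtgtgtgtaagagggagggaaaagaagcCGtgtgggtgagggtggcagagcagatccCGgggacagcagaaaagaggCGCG
L1cam: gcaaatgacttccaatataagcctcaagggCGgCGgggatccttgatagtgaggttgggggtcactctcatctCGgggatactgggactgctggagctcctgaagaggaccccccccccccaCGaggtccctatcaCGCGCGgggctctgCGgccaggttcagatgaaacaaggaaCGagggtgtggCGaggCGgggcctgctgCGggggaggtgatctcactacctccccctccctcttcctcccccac
Nrcam: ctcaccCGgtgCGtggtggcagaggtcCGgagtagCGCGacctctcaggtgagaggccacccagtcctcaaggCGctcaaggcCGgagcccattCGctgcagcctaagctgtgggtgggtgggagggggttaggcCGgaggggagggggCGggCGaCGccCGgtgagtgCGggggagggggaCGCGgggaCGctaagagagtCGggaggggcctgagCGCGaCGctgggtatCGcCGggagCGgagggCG
Nfasc: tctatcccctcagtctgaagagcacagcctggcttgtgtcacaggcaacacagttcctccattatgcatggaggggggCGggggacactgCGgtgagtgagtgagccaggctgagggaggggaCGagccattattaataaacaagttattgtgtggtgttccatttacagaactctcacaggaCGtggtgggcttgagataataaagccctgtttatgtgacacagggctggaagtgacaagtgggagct
The Chl1 sequence lies on the plus strand at chr6:103510626-103510875 and holds 8 CG, and 43.0% of the 32851 starts in the table hold as many or more. The Nrcam sequence, at chr12:44328635-44328884 on the plus strand, holds 25, which 10.7% of starts reach. The L1cam sequence, at chrX:73880835-73881084 on the minus strand, holds 12, and the Nfasc sequence, at chr1:132707327-132707576 on the minus strand, holds 4. L1cam and Nfasc have 2 starts each in that table, and the outermost is shown. The counted Nfasc region is 80.17 kb of a gene of 177.159 kb, and whether it begins at the printed start was not checked. The median start holds 6 CG, so the densely marked Chl1 was near the middle of all starts in this measure and Nrcam was the CG-rich member.

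Values are reads counted over a region that runs from 2 kb before the start to the transcript end, on mm9. The H3K79me2 libraries held 4287873 counts in D544R, 3558329 in D546R and 5993741 in WT, and the H3K79me3 libraries held 5207395, 6652571 and 5859821 in the same order. Levels are given as counts per kb of region, not scaled for library size, and as a multiple of the summed density of 30 genes of other tissues, called the silent level. Of these, Tg overlaps Sla, a region of 11.1 to 14.7 counts per kb over the 6 libraries. Without Tg the silent level is lower, and Chl1 in D546R H3K79me2 then stands at 14.2 times that level in place of 10.6. That level was 2.74, 2.31 and 3.91 counts per kb of H3K79me2 and 4.44, 6.51 and 4.92 of H3K79me3 in D544R, D546R and WT. Of 14 hematopoietic progenitor markers, 8, 8 and 7 stood at 2 or more times the silent level in H3K79me2 of D544R, D546R and WT. In H3K79me3 the counts were 2, 4 and 5 in the same order. Among all 24012 genes, 5478, 5682 and 5242 reached it in H3K79me2, and 2938, 2726 and 3283 in H3K79me3. The 2 of 14 in D544R H3K79me3 are near the share of all genes. Among 8 neuron markers, 0 reached it in any of the 6 libraries. The summed neuron markers stood at 0.762, 0.685 and 0.783 of the silent level in H3K79me2 of D544R, D546R and WT, and at 0.896, 0.764 and 0.911 in H3K79me3. Of 9 glia markers, Mbp alone passed 2 times the silent level in H3K79me2, with 7.03, 6.60 and 8.24 counts per kb in D544R, D546R and WT. In H3K79me3, 2 glia markers passed it in D544R and 0 in D546R and WT. No neuron or glia marker was denser than Chl1 in any library. Of all 24012 genes, 3859 were denser than Chl1 in D544R H3K79me2 and at most 727 in any other library, so this says little about the markers. Of the 14 hematopoietic markers, 6 were denser than Chl1 in D544R H3K79me2 and at most 1 in any other library.

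Chl1 (NM_007697), a ligand and co-receptor in axon guidance, fills 224.161 kb of chromosome 6 at 103458869 to 103683029, and no other region of the table overlaps it. In H3K79me2 it had 1653 counts in D544R, 5467 in D546R and 5922 in WT, which is 7.37, 24.4 and 26.4 counts per kb. In H3K79me3 it had 4223 counts in D544R, 7090 in D546R and 6301 in WT, or 18.8, 31.6 and 28.1 per kb. The D544R library was the lowest of the 3 in each mark, and it stood far below the others in H3K79me2.

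Against the silent level, Chl1 stood at 2.69 times in D544R, 10.6 times in D546R and 6.75 times in WT for H3K79me2. The H3K79me3 multiples lay closer together, at 4.25 in D544R, 4.86 in D546R and 5.72 in WT. In every library Chl1 was thus above the silent genes, D544R H3K79me2 being the nearest to them. Short regions were at 0 counts more often than independent reads at a single even density would leave. Unequal densities of these regions were not told apart from reads that share a fragment. Each interval was also computed on counts divided by an estimated number of reads per fragment, 3.27 to 4.79 in H3K79me2 and 8.11 to 18.6 in H3K79me3. These 95% fragment intervals of the Chl1 density ran from 6.74 to 8.04 per kb in D544R H3K79me2, from 23.0 to 25.8 in D546R and from 25.1 to 27.8 in WT. They describe the contrast that chose Chl1 and are not scaled for library size.

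For so long a gene the level was high. Among the 2298 regions of at least 100 kb, Chl1 ranked 222 by H3K79me2 density in D544R, 9 in D546R and 42 in WT. It ranked 17 in D544R, 2 in D546R and 16 in WT by H3K79me3 density. In D546R H3K79me3 only Mtmr3, at 32.2 counts per kb, was denser than Chl1 among those long regions, and Ankrd11 followed at 30.7. By plain counts Chl1 held more reads than any other gene in the D546R H3K79me2 library, 0.154% of the total, against rank 24 and 0.0988% in WT. The same measure put it at rank 291 with 0.0386% in D544R.

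**Figure D1:**
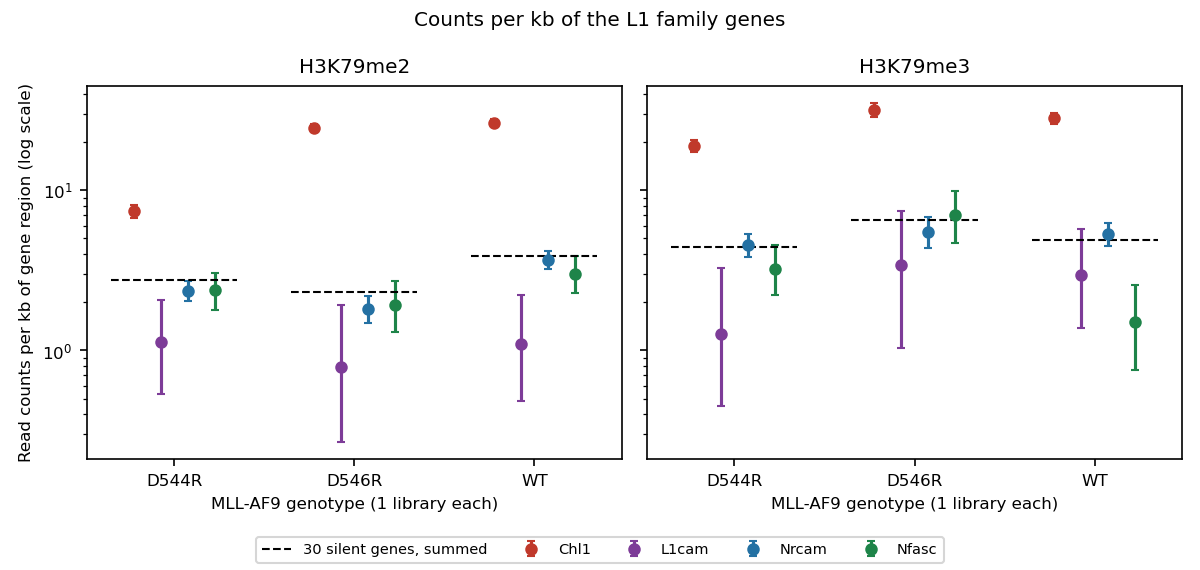
Read counts per kb of region (log scale) of the 4 L1 family genes in each library, by MLL-AF9 genotype and mark. Bars are 95% fragment intervals, dashes mark the summed density of 30 silent genes, and Chl1 alone lies above the dashes in all 6 libraries, at 7.37 to 31.6 counts per kb.

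The paralogs lay near or under the silent level. Nrcam (NM_001146031), which gathers sodium channels at nodes, spans 274.963 kb of chromosome 12 at 45427871 to 45702833. It had 649, 499 and 1013 counts of H3K79me2 in D544R, D546R and WT, or 2.36, 1.81 and 3.68 per kb. In H3K79me3 it had 1249, 1504 and 1462 counts, or 4.54, 5.47 and 5.32 per kb. Its multiples of the silent level, from 0.786 to 1.08 over the 6 libraries, place it at that level in every genotype.

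Nfasc (NM_001160316), which anchors the axon initial segment and the node, is counted over 80.17 kb of chromosome 1 at 134459266 to 134539435. On GRCm38 the gene runs over 177.159 kb, so the region covers a shorter transcript. It had 190, 154 and 241 counts of H3K79me2 in D544R, D546R and WT, or 2.37, 1.92 and 3.01 per kb. In H3K79me3 it had 260 counts in D544R, 564 in D546R and 121 in WT, or 3.24, 7.04 and 1.51 per kb. The D546R value is 1.08 times the silent level, the D544R value 0.731 times and the WT value 0.307 times, so WT was the low library and neither mutant stood clear of the silent genes.

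L1cam (NM_008478), the founding member of the family, spans 29.056 kb of chromosome X at 71097118 to 71126173. It had 33, 23 and 32 counts of H3K79me2 in D544R, D546R and WT, and 37, 99 and 86 of H3K79me3. These are 1.14, 0.792 and 1.10 per kb of H3K79me2 and 1.27, 3.41 and 2.96 of H3K79me3, at most 0.602 times the silent level. Regions of 20 to 40 kb on chromosome X had a median of 1.41, 1.19 and 2.09 counts per kb of H3K79me2 in D544R, D546R and WT, against 3.18, 2.47 and 4.44 on the autosomes. In H3K79me3 those medians were 2.02, 3.07 and 2.30 on chromosome X, against 4.62, 6.19 and 5.09 on the autosomes. A low density was thus shared by X-linked regions of that length. L1cam lay below the X median in each H3K79me2 library and in D544R H3K79me3, and above it in H3K79me3 of D546R and WT. The number of X chromosomes in the cells was not tested.

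In order of density the family ran Chl1 first and L1cam last in all 3 H3K79me2 libraries, with Nrcam and Nfasc between them. Nrcam and Nfasc had overlapping fragment intervals in each H3K79me2 library. In H3K79me3 the order of the 3 paralogs changed between libraries, Nfasc leading them in D546R and standing last in WT, while Chl1 was first throughout.

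Ratios between genotypes were taken after median-of-ratios scaling within each mark and are printed as log2 ratios, with their 95% fragment intervals where none other is named. Called genes had a difference of 2-fold or more, a counting interval clear of no change, and normalised counts that averaged 100 or more across the libraries of the mark. Chl1, Nrcam and Nfasc reached that average in both marks. L1cam, with means of 29.3 in H3K79me2 and 71.6 in H3K79me3, did not, and was not called in any comparison.

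The D544R normalised count of Chl1 in H3K79me2 was 1700, against 4398 in WT, a log2 ratio of -1.37 (-1.52 to -1.22), or 2.59-fold lower. Over all 8905 genes past the filter 0.0112% were called lower in D544R, which is Chl1 alone, and 0.0337% were called higher. The values just above it were -0.96 for Klra21 and -0.89 for Ppp2r3c, both under 2-fold. Among the 899 genes with a mean of at least 1000, the next lowest was Pde3b at -0.42, and the 5th to 95th percentiles were -0.22 and 0.20. Chl1 thus stood outside the range that genes of its read depth filled, and the contrast is the one it was selected on.

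The D546R normalised count of Chl1 in H3K79me2 was 7157, a log2 ratio to WT of 0.70 (0.59 to 0.82), or 1.63-fold. It was not called, and it was the 464th highest of the 8905. In that comparison 0.865% of genes were called lower and 0.853% higher, and 0 of the 3 members past the filter were called. D546R stood 4.21-fold above D544R, with a log2 ratio of 2.07 (1.92 to 2.23), the highest of the 8905 genes past the filter, ahead of Cd33 at 1.91. There 0.876% of genes were called lower and 0.752% higher, with Chl1 as the only member called. This comparison shares the D544R library with the one that chose Chl1, so its size is a description too.

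In H3K79me3 the D544R normalised count of Chl1 was 4846, the D546R count 6067 and the WT count 6417. The log2 ratio to WT was -0.41 (-0.57 to -0.24) in D544R and -0.081 (-0.27 to 0.11) in D546R. D546R against D544R gave 0.32 (0.13 to 0.52). None of the 3 reached 2-fold, so Chl1 was not called in H3K79me3.

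**Figure D2:**
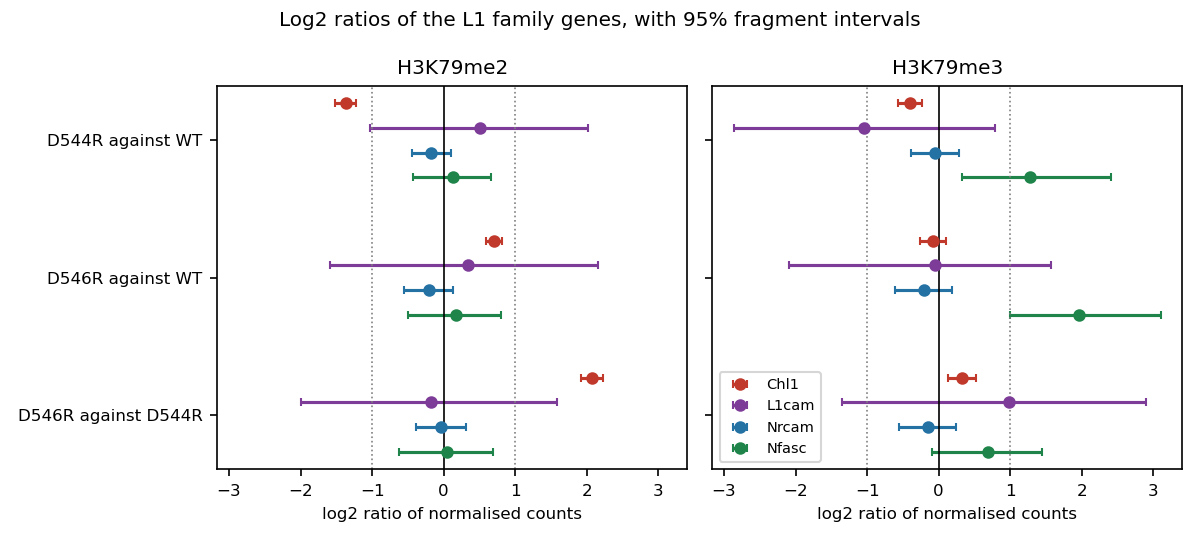
Log2 ratios of normalised counts of the 4 L1 family genes for 3 comparisons in each mark, with 95% fragment intervals; dotted lines mark 2-fold. Chl1 lies at -1.37 in D544R against WT and at 2.07 in D546R against D544R for H3K79me2, and Nfasc lies beyond 2-fold against WT for H3K79me3.

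Nfasc was the only member called in H3K79me3. Its log2 ratio to WT was 1.27 (0.33 to 2.42) in D544R and 1.97 (0.99 to 3.10) in D546R. Of the 10824 genes past the filter 3.02% were called lower and 4.34% higher in D544R, and 8.91% lower and 6.95% higher in D546R, so a call is frequent in this mark. D546R against D544R gave 0.69 (-0.089 to 1.44), not called, where 8.3% of genes were called lower and 5.78% higher. In H3K79me2 the 3 log2 ratios of Nfasc lay between 0.045 and 0.17, and each interval included no change.

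For Nrcam the 3 H3K79me2 ratios were -0.17 for D544R against WT, -0.20 for D546R against WT and -0.031 for D546R against D544R. The H3K79me3 ratios were -0.055, -0.21 and -0.16 in the same order. Every fragment interval of Nrcam included no change, the widest reaching -0.62. L1cam counts gave H3K79me3 log2 ratios of -1.04 (-2.87 to 0.79) in D544R and -0.048 (-2.09 to 1.57) in D546R against WT, intervals too wide to show a 2-fold difference. The medians of the 3 members past the filter in H3K79me2 were -0.17 in D544R and 0.17 in D546R against WT, and 0.045 between the mutants, where all genes past the filter had medians of -0.016, 0.072 and 0.094. In H3K79me3 they were -0.055, -0.081 and 0.32, with -0.0051, -0.028 and -0.047 for all genes.

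**Figure D3:**
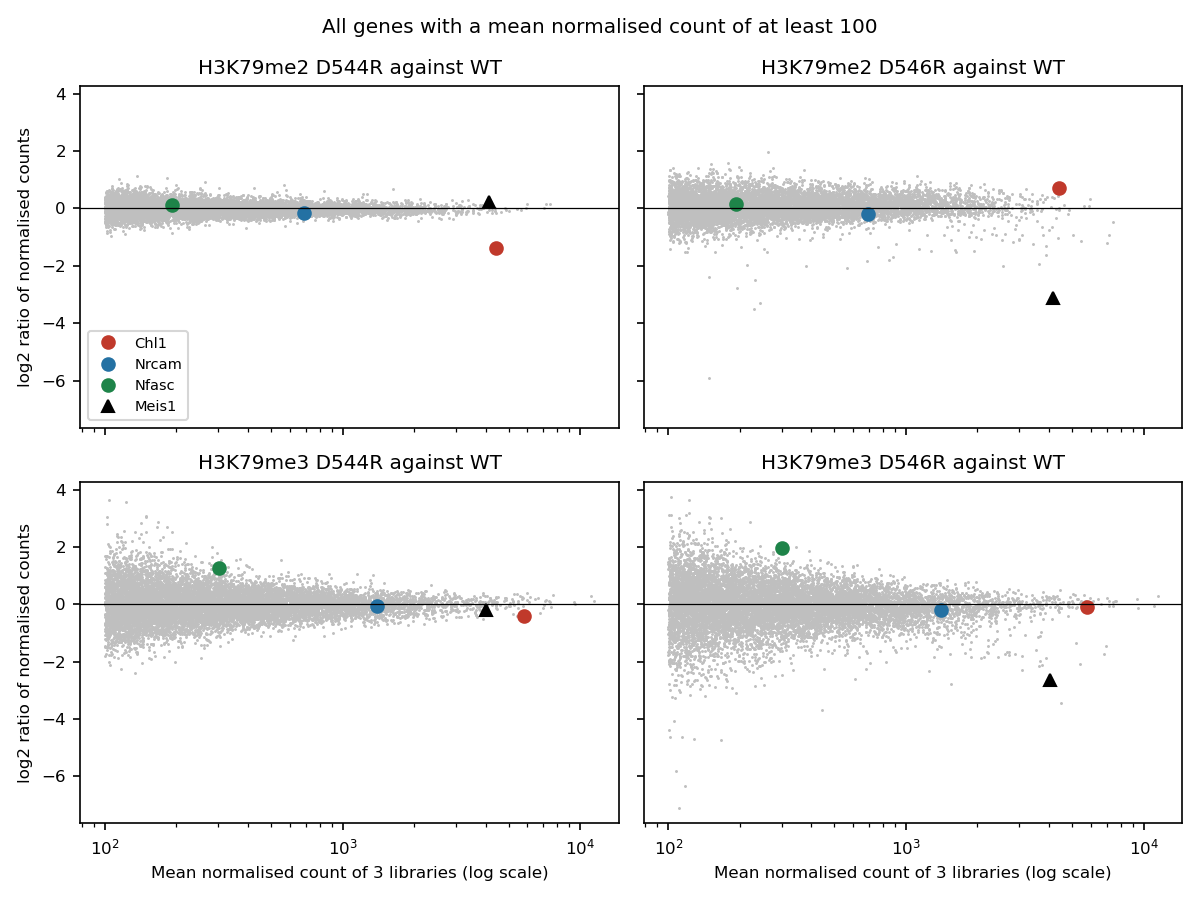
Log2 ratio to WT against the mean normalised count (log scale) for every gene with a mean of at least 100, by mark and mutant; Chl1, Nrcam, Nfasc and, for scale, the fusion target Meis1 are marked. Chl1 sits alone at the bottom for D544R H3K79me2, at -1.37, and Meis1 at -3.12 for D546R H3K79me2.

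The D544R ratio of Chl1 to WT was below no change in both marks, at -1.37 in H3K79me2 and -0.41 in H3K79me3. The H3K79me3 ratio was only the 2143rd lowest of the 10824 genes past the filter. It lay within the 5th to 95th percentiles, -0.45 and 0.39, of the 1247 genes with a mean of at least 1000 in that mark. For D544R against WT, the H3K79me3 ratio of Chl1 exceeded its H3K79me2 ratio by 0.97, the 294th highest difference of 8411 genes past the filter in both marks. For D546R against D544R the H3K79me3 ratio was lower, by -1.75, the 162nd lowest, where the median gene differed by -0.14. Chl1 was chosen on its H3K79me2 ratio in D544R against WT, and D546R against D544R shares that D544R library. Both ranks of Chl1 therefore follow in part from the choice and are a description. Nfasc had a difference of 1.79 for D546R against WT, the 51st highest, and Nrcam one of -0.0065. The antibodies and libraries differ between the marks, and the part they play was not tested.

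Meis1, a homeobox gene and a standard target of MLL fusions, is given for scale. It had 6154 counts of H3K79me2 in D544R, 480 in D546R and 7372 in WT, with log2 ratios to WT of 0.21 in D544R and -3.12 in D546R. Chl1 had 0.168 times the density of Meis1 in D544R, 7.14 times in D546R and 0.504 times in WT. In H3K79me3 the multiples were 0.585, 3.98 and 0.676. The order of the mutants was thus opposite in H3K79me2: Meis1 was low in D546R and Chl1 in D544R. Cdk6, another fusion target, had 31.1, 13.7 and 45.9 counts per kb of H3K79me2 in D544R, D546R and WT, not scaled for library size. Its normalised counts were 5758, 3222 and 6127 in the same order, likewise lowest in D546R. It was not called in D546R against WT, where 7 of 8 listed fusion targets and 0.865% of all genes were called lower. Gapdh, a short housekeeping gene whose region overlaps 1 other, had 15.0, 10.1 and 17.7 counts per kb.

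The nearest regions to Chl1 on chromosome 6 were poor in reads, and 2 of them lie within 1 Mb of it. Mir6373, a microRNA gene of 2.103 kb that ends 714 kb before Chl1, had 7, 1 and 9 counts of H3K79me2 in D544R, D546R and WT and 2, 0 and 17 of H3K79me3. So few counts give no comparison.

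Cntn6, a contactin of 372.363 kb that binds L1 family proteins and starts 758 kb after Chl1, had 693 counts of H3K79me2 in D544R, 669 in D546R and 951 in WT. That is 1.86, 1.80 and 2.55 per kb, and the H3K79me3 density was 4.09, 4.79 and 4.29 per kb. Chl1 was 3.96, 13.6 and 10.3 times as dense as Cntn6 in H3K79me2 of D544R, D546R and WT, and 4.61, 6.61 and 6.55 times in H3K79me3. Cntn6 stood at 0.679, 0.778 and 0.653 of the silent level in H3K79me2 of D544R, D546R and WT. It had no density above that level to lose, so its ratios do not show whether a change reached beyond Chl1. The log2 ratio of Cntn6 in D544R against WT H3K79me2 was 0.013 (-0.27 to 0.28). In D546R it was 0.31 against WT and 0.30 against D544R, both with intervals that included no change and reached 0.62.

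**Figure D4:**
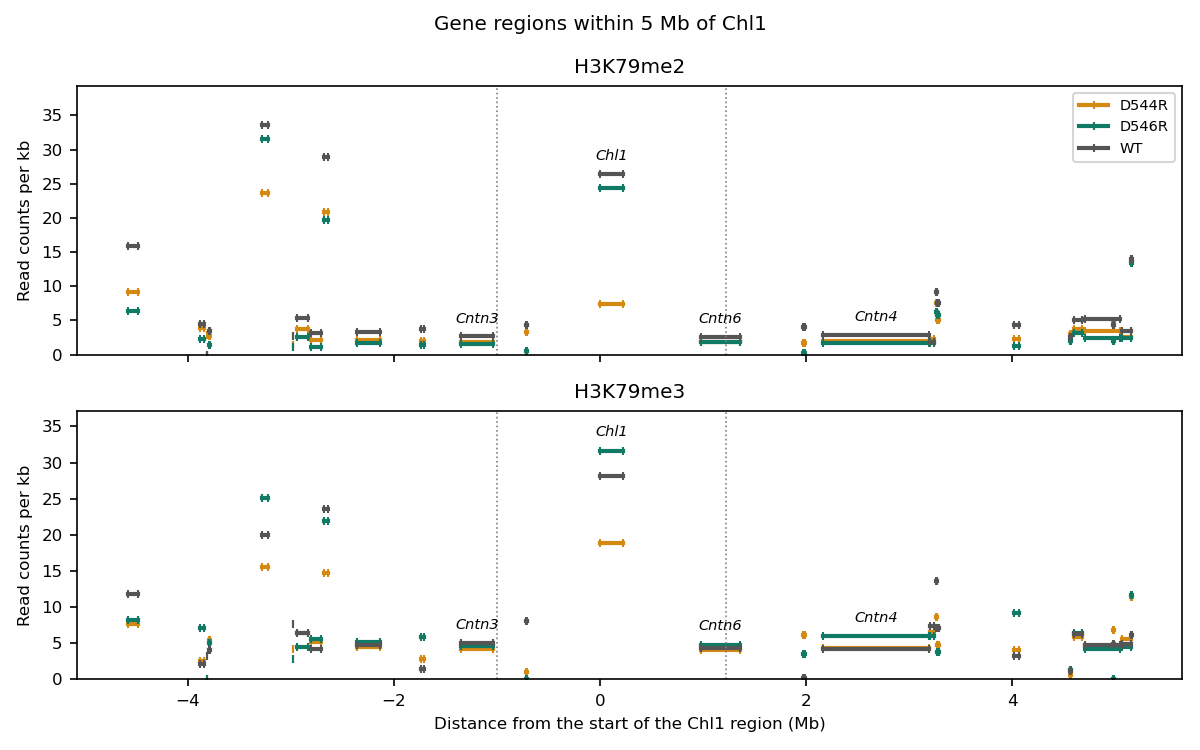
Read counts per kb of the gene regions within 5 Mb of Chl1, drawn at their distance in Mb from its start, with a line per genotype; dotted lines mark 1 Mb to either side. Chl1 stands at 7.37 to 26.4 counts per kb of H3K79me2 while Cntn6 stays at 1.80 to 2.55.

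The contactins and their associated proteins, which bind L1 family members across and along membranes, gave 0 calls among the 11 of 13 genes past the filter in H3K79me2 and 0 among 12 in H3K79me3, in all 3 comparisons. Over all genes at most 0.876% were called lower and at most 0.853% higher in H3K79me2, so 0 of 11 says little about this list. In H3K79me3 3.02% to 8.91% of all genes were called lower and 4.34% to 6.95% higher, and 0 of 12 says little there too. Their WT density ran from 2.35 counts per kb of H3K79me2 in Cntnap1 to 4.03 in Cntnap3. A further 14 neural adhesion genes of the immunoglobulin class gave 0 calls among 12 in H3K79me2 and 13 in H3K79me3. Beside the same shares of all genes, these counts are not a result about the list. Ncam1 led them in WT H3K79me2 at 4.87 counts per kb. No gene of these lists was as dense as Chl1 in any library. Of all 24012 genes, 3859, 276 and 727 were denser than Chl1 in H3K79me2 of D544R, D546R and WT. In H3K79me3 the numbers were 505, 243 and 320 in the same order. Few genes of any kind were thus denser than Chl1, most of all outside D544R H3K79me2, so the counts of 0 say little about these lists.

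Inside the cell the family tail meets ankyrins, spectrins, the ezrin, radixin and moesin linkers, doublecortin and the clathrin adaptor. Of 14 such genes 11 passed the filter in H3K79me2 and 13 in H3K79me3. Rdx, encoding radixin, was called lower in D546R in both marks. It had 1783, 685 and 2591 counts of H3K79me2 and 1391, 422 and 1776 of H3K79me3 in D544R, D546R and WT, and its region overlaps 1 other. The log2 ratio of D546R to WT was -1.10 (-1.37 to -0.84) in H3K79me2 and -2.32 (-3.00 to -1.67) in H3K79me3, and D544R was not called in either. Over all genes 0.865% were called lower in D546R against WT in H3K79me2 and 8.91% in H3K79me3. Rdx was the densest of the list in WT, at 60.5 counts per kb of H3K79me2, and Dcx the least dense, at 1.23.

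Hspa8, a chaperone that uncoats clathrin vesicles, was called higher in D546R H3K79me2, at a log2 ratio to WT of 1.03 (0.21 to 1.89). Over all genes 0.853% were called higher in that comparison. Ank2, ankyrin B, was called higher in D546R H3K79me3, with 40 counts in D544R, 244 in D546R and 49 in WT, a log2 ratio to WT of 2.05 (0.48 to 3.90). Dcx, with 1.01 in the same H3K79me3 comparison, had a fragment interval that included no change (-0.13 to 2.04). In that comparison 1 of the 13 genes was called lower and 2 higher, where 8.91% and 6.95% of all genes were, so calls in such numbers are not a result about the list. No gene of this list was called in D544R against WT in either mark. Over all genes 0.0112% were called lower and 0.0337% higher there in H3K79me2, and 3.02% and 4.34% in H3K79me3, so this says little about the list.

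Outside the cell the family works with neuropilins, plexins, integrins and proteoglycans. Of 19 such genes 15 passed the filter in H3K79me2 and 16 in H3K79me3. The 15 gave 0 calls, where at most 0.876% of all genes were called lower and 0.853% higher in H3K79me2. Itgb1, the beta subunit shared by many integrins, was called lower in D546R H3K79me3, with 636 counts in D544R, 368 in D546R and 1002 in WT. Its log2 ratio to WT was -1.69 (-2.45 to -0.98). Itga5 was called lower in D544R and higher in D546R against WT, and Plxna1 higher in D546R, at -1.11, 1.03 and 1.03, and all 3 fragment intervals included no change. In D546R against WT these calls are 1 lower and 2 higher of 16, beside 8.91% and 6.95% of all genes, again not a result about the list. Against D544R, D546R was called lower in H3K79me3 for Itgb1 and higher for Itga5 and Plxna1, where 8.3% and 5.78% of all genes were. Among 4 enzymes that shed L1 family ectodomains, 3 passed the filter and 0 were called in either mark. With 3 genes and at most 8.91% of all genes called lower and 6.95% higher, this is not a result about them. Adam10 was the densest of them in WT, at 20.8 counts per kb of H3K79me2 and 13.3 of H3K79me3.

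**Figure D5:**
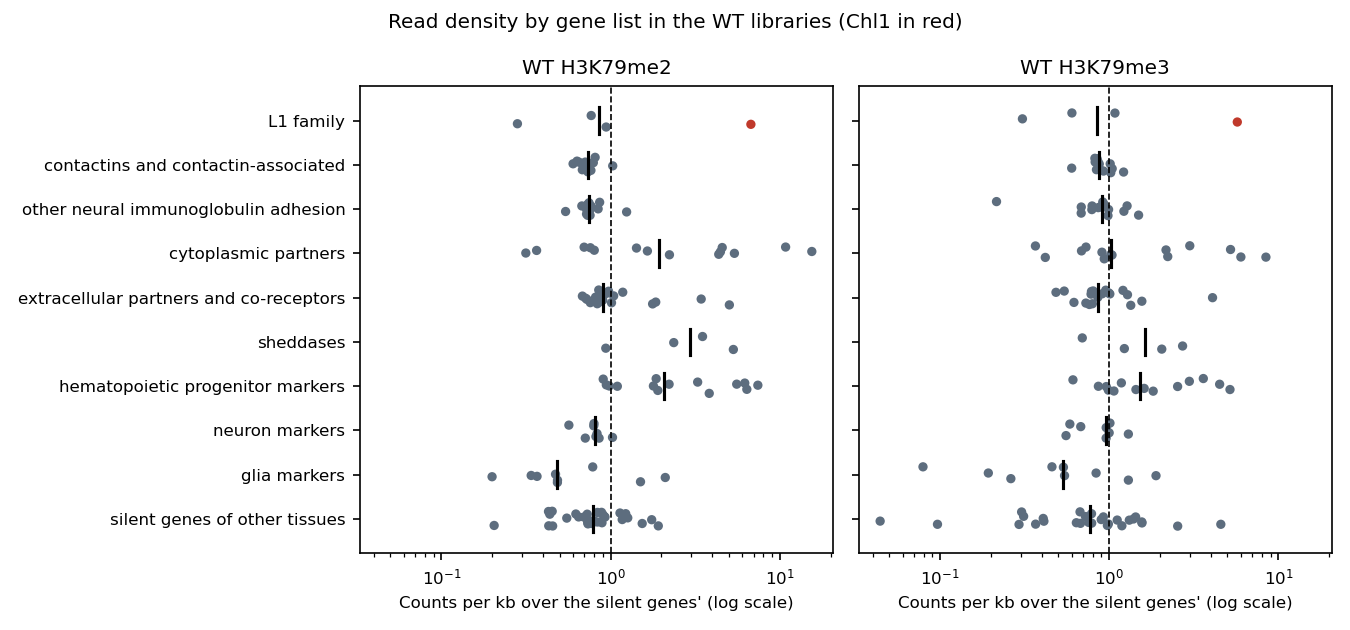
Counts per kb over the silent level (log scale) in the WT libraries, with a point per gene and a bar at the median of each list. Chl1, in red, is at 6.75 in H3K79me2 and 5.72 in H3K79me3, to the right of every contactin, neural adhesion gene and neuron marker; genes at 0 counts are not drawn but count in the median.

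The genes whose 4 ratios to WT were most like those of Chl1, by Euclidean distance in log2 units over 2 mutants and 2 marks, were Ppp2r3c at 0.737, Cdkl2 at 0.834, Irak3 at 0.839, Zfp944 at 0.942 and Prdx1 at 0.984. These were the nearest of 8411 genes with a mean of at least 100 in both marks. Their H3K79me2 ratios for D544R against WT were -0.89, -0.56, -0.62, -0.77 and -0.66, and for D546R against WT 0.26, 0.71, 0.58, 0.41 and 0.30. Each had a D544R value below WT and a D546R value above it in H3K79me2, as Chl1 did. Because the 5 were picked on these same ratios, those shared directions follow from the choice. None could reach the -1.37 of Chl1, which is the lowest ratio of the genes past the filter. The fragment interval of Ppp2r3c in that contrast was -1.75 to -0.14, and Cdkl2 had 60 counts in D544R and 123 in WT. None of the 5 lies on the chromosome of Chl1.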

How the data were processed

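Chromatin of 6 mouse progenitor samples was precipitated with an antibody to H3K79me2 or H3K79me3. The submitters' processing notes name Bowtie, bedtools, DESeq and mm9 without a role, order or version. The deposited file gives unscaled counts of reads for each gene; per the file headers, counting began 2 kb ahead of the start site and stopped at the transcript's end, and no strand is listed. Per the labels, reads of several runs were merged. The sources do not say how duplicate reads were treated. No input or spike-in was used here, so scaling hides any genome-wide change of a mark.

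Counts were divided by median-of-ratios size factors of the 3 libraries of each mark (0.972, 0.764 and 1.35 for D544R, D546R and WT in H3K79me2; 0.872, 1.17 and 0.982 in H3K79me3). Log2 ratios used a prior count of 0.5, with exact conditional binomial (Clopper-Pearson) 95% intervals, and exact Poisson intervals for levels. Fragment intervals used counts divided by reads per fragment, estimated from the share of 4617 autosomal regions under 5 kb at 0 counts. That estimate assumed an even density over these regions. The intervals cover counting error only, and the fragment intervals are wider. The script was tested on simulated data with independent (Poisson) counts, which did not test the fragment intervals. Named were the members, all regions within 1 Mb of Chl1, the 5 genes most like it, called list members, the densest and least dense list members in WT, and Meis1, Cdk6 and Gapdh; the text gives a selection of these. Members and lists were chosen with earlier results of these data known. Python 3.11.15, numpy 2.4.6, pandas 2.3.3, scipy 1.17.1 and edgeR 4.0.16 (TMM factors, as an alternative scaling) were used.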

Additional observations from a re-analysis of the deposited data

Results flagged for a closer look

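The 2 marks pointed opposite ways for Chl1 in D546R against WT by their counting intervals: the log2 ratio was 0.70 in H3K79me2 and -0.081 in H3K79me3. The difference between the marks was not tested, since each has 1 library per genotype. The H3K79me3 fragment interval, -0.27 to 0.11, included no change, and with Cntn6 as the reference the H3K79me3 ratio was 0.013, so the opposite direction was lost.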

How the results depend on the processing

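Chl1 stayed called lower in D544R against WT H3K79me2, and higher in D546R against D544R, under each of 8 alternatives that gave a call: total counts, TMM factors, size factors over all 6 libraries, silent genes, silent genes without Tg or Cntn6 as the reference, a prior count of 5 and fragment intervals. Neither ratio changed sign, nor did the called H3K79me3 ratios of Nfasc to WT. Of the ratios of these genes that were not called, Chl1 in H3K79me3 D546R against WT turned to 0.013 with Cntn6 as the reference. Nfasc in H3K79me2 turned to -0.14 for D546R against WT with Cntn6, and to -0.034, -0.056 and -0.25 for D546R against D544R with total counts, silent genes and Cntn6. Uncalled ratios of L1cam (1) and Nrcam (2) also changed sign, within 0.046 of no change. With the silent density subtracted (chosen, like the Cntn6 reference and the list without Tg, after seeing the data), the H3K79me2 log2 ratios moved to -1.81 for D544R against WT and 2.60 for D546R against D544R. With Cntn6 as the reference they were 0.39 for D546R against WT and 1.78 against D544R, and the H3K79me3 ratio against D544R was 0.52. Without Tg in the silent reference, the H3K79me3 ratio of D546R was -0.36 against WT and 0.023 against D544R. Cntn6 as the reference shifted the median of all genes by -0.31 for D546R against WT in H3K79me2, and the silent genes without Tg shifted it by -0.27 in H3K79me3. The 18 paralog ratios kept their calls under the same 8 alternatives; other filters and folds were not run for single genes. Chl1 stood at 2.69 to 3.96 times the reference density in D544R H3K79me2, 10.6 to 14.2 in D546R and 6.75 to 10.3 in WT over the 5 denominators tried.

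Counts of called genes depended on the filter and the fold. In H3K79me2, D544R against WT gave 1 gene lower and 3 higher, 370 and 630 with no filter, 48 and 74 at 1.5-fold, and 0 higher with a mean of at least 300. The 6-library size factors gave 2 genes lower. D546R against WT gave 77 lower and 76 higher, ranging over 33 to 1987 and 8 to 1153, and D546R against D544R gave 78 and 67, ranging over 34 to 1949 and 11 to 937. In H3K79me3 the ranges were 14 to 3006 lower and 37 to 3340 higher for D544R against WT, where 327 and 470 were called. They were 249 to 4535 and 84 to 4266 for D546R against WT, with 964 and 752 called, and 169 to 4702 and 68 to 3917 for D546R against D544R, with 898 and 626 called. No paired analysis was possible because each group has 1 library, and for the same reason no replicate could be left out. L1cam, at 23 to 99 counts, is the member whose depth limits the ratios most.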
